A study of Mus musculus with 25 samples.

Results

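The genes described here are 41 mouse genes that act in DNA replication and in the step from the first gap phase of the cell cycle into DNA synthesis (G1/S). They were measured in growing myoblasts, the cultured progeny of muscle satellite cells. The members were every probe set with a single annotated symbol among these 41 genes, out of 15964 genes with such a probe set in the whole series. They came to 74 probe sets, 52 on the chip type U74Av2, 2 on U74Bv2 and 20 on U74Cv2. A further 3 probe sets carried several symbols, a member among them, and were not used. The groups were MyoD-/- myoblasts, p53-/- myoblasts and wild type myoblasts, each with RNA samples A, B and C. On U74Cv2 the letter of MyoD-/- B was taken from its title, while its description carries the letter A. MyoD is a transcription factor that drives the muscle lineage, and p53 is one that answers to damaged DNA and other stress. The labels give no strain, age or construct, and do not say whether the letters stand for mice or for cultures. All groups were grown alike on a collagen coat, in a Ham's medium to which 4 ng/ml bFGF and 20% calf serum had been added. The cells were purified by preplating and passaging to a stated purity over 98%. MAS5 signal intensities were available for 9 arrays each of U74Av2 and U74Cv2 and for 7 arrays of U74Bv2, where p53-/- had sample A alone.

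Replication starts where the origin recognition complex, Cdc6 and Cdt1 load the MCM helicase onto DNA in G1, a step called licensing that geminin (Gmnn) later blocks. At the start of synthesis cyclin E and its kinase help fire the origins, primase and DNA polymerase alpha lay down primers, and the clamp loader (Rfc) sets the ring-shaped clamp Pcna around DNA for the polymerases that follow. Many of these genes are known targets of E2F transcription factors, and p53 is known to hold cells in G1 through Cdkn1a (p21), an inhibitor of cyclin-dependent kinases. Myoblasts leave this cycle for good when they fuse into muscle fibres.

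The arrays of a chip type shared one scale, with array medians between 463.9 and 565.4 for U74Av2, between 729.8 and 777 for U74Bv2, and between 454 and 545.3 for U74Cv2. Myod1 itself had signals of 5352, 4024 and 5152 in MyoD-/- samples A, B and C, 23450, 24450 and 18500 in p53-/- samples and 37440, 40170 and 45190 in wild type samples. The MyoD-/- signals were the lowest but stood far above the 20th percentile of that chip type (67.19), and where the probe set lies relative to the deleted sequence was not analysed here. No probe set with a single symbol represented Trp53, so the p53 deletion was read from its target Cdkn1a, at 965.6, 1887 and 1194 in p53-/-, against 6852, 6502 and 8124 in wild type. Of the 5 myoblast markers, 4 were called lower and Myf5 higher in MyoD-/- than in wild type. In p53-/- against wild type Cdh15 (-1.23), Des (-1.43) and Myod1 (-0.89) were called lower, Myf5 (2.98) was called higher, and Met (0.08) was not called. The sum of the 5 signals was 8444 to 12500 in MyoD-/-, 25920 to 34620 in p53-/- and 47710 to 53800 in wild type. Desmin, a marker of purity in the labels, had 79.51 to 304.6 in MyoD-/-, 839.1 to 1726 in p53-/- and 3551 to 3897 in wild type. Of 8 fibroblast markers 5 were tested, with sums of 60200 to 64220 in MyoD-/-, 34710 to 52650 in p53-/- and 31150 to 45580 in wild type, and Col1a1 and S100a4 were called higher in MyoD-/- than in wild type. Col3a1 (-0.24), Col1a2 (-0.07) and Pdgfra (-0.08) were slightly negative in that comparison and not called. S100a4 alone averaged 45360 in MyoD-/-, 36440 in p53-/- and 23750 in wild type, and so made up most of the sums. Of the Schwann cell list Pmp22 was called higher in MyoD-/- than in wild type and Sox10 was not, with sums of 3978 to 6323 in MyoD-/-, 1513 to 2532 in p53-/- and 1287 to 2030 in wild type. The endothelial marker Pecam1 stayed at 121.4 to 502.2 in all samples, and neither tested macrophage and leukocyte marker was called in any comparison. No adipocyte marker passed the filter. The part of these markers in the results on replication genes was not tested.

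Sample MyoD-/- B stood apart for these genes, mainly on U74Av2. It had the lowest signal of all 9 samples for 25 of the 39 members tested on U74Av2 or U74Cv2, against 2 for MyoD-/- A and 3 for MyoD-/- C. The same count was not made over all genes, so it is not shown to be particular to the members. Relative to the mean of 9 arrays, the members averaged a log2 deviation of 0.02, -0.47 and -0.04 in MyoD-/- A, B and C, 0.32, 0.24 and 0.23 in p53-/-, and -0.11, -0.09 and -0.12 in wild type. The 33 tested genes of a G2/M and mitosis list gave 0.08, -0.37 and 0.06 in MyoD-/-, 0.33, 0.29 and 0.26 in p53-/-, and -0.28, -0.21 and -0.16 in wild type, so the low level of MyoD-/- B was not limited to replication genes. Calls among the members in comparisons with MyoD-/- are therefore given with and without sample B. Results on the other gene lists and on the markers are given with all samples only. In bulk RNA of this kind, fewer cells in S phase and less RNA per cell cannot be told apart. Of the 7 members read on U74Cv2, Mcm6 (-1.35), Rpa2 (-0.75) and Cdc45 (-0.24) were below the mean of 9 arrays in MyoD-/- B. Mcm5 (0.07), Orc4 (0.21), Tk1 (0.22) and Ccne2 (0.18) were above it there. Whether the low level of MyoD-/- B belongs to the cells or to the U74Av2 array was not tested.

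**Figure D1:**
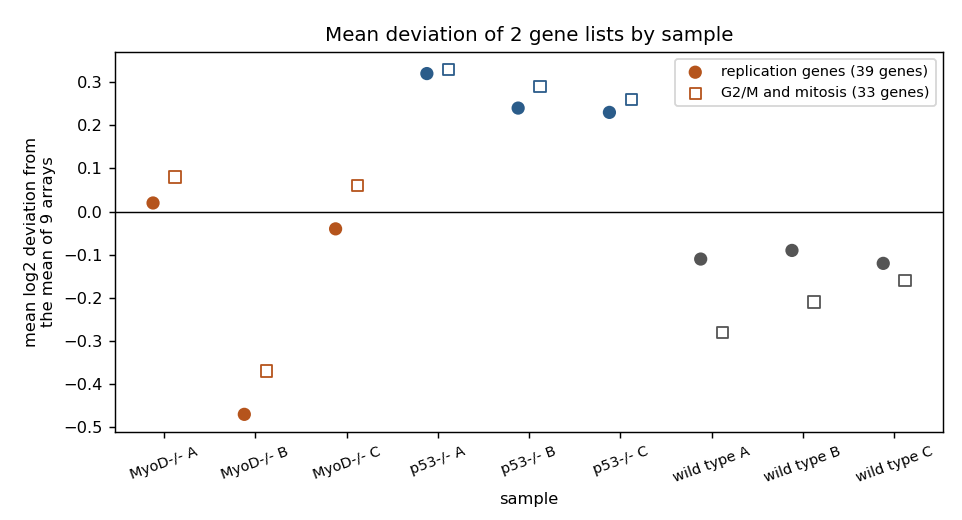
Mean deviation of replication genes (filled circles, 39 genes) and of G2/M and mitosis genes (open squares, 33 genes) in each of the 9 samples, on the log2(signal + offset) scale relative to the mean of 9 arrays. All 3 p53-/- samples lie above 0.2 for both lists, all wild type samples lie below 0, and MyoD-/- B is the lowest sample with -0.47 and -0.37.

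Between genotypes the calls among replication genes were all higher in p53-/- than in wild type, and none was made in MyoD-/- against wild type. In p53-/- against wild type, 6 of 39 tested members rose and 0 fell at an adjusted p under 0.05 (limma), where 6.06% of all 9013 genes were called higher and 6.52% lower. The 6 were Gmnn, Rfc1, Orc6, Mcm3, Pola2 and Pcna, with log2 fold changes of 0.67 to 1.32. The median log2 fold change of the members was 0.39, against -0.01 for all genes tested. Of the 39 members 33 had a positive value, against 49.04% of all genes. With every array shifted to one median, the median of all genes moved to 0.10 and that of the members to 0.50, and the calls over all genes changed to 759 higher and 449 lower, against 546 higher and 588 lower as deposited. All p53-/- samples lay above all wild type samples for 19 members and below them for 3, against 17.6% and 16.9% of all genes. Leaving out 1 sample at a time gave 4 to 12 calls among the members. There were 4 without p53-/- A, without wild type B or without wild type C, where 7.32%, 7.7% and 8.76% of all genes were called in either direction, against 12.6% with all samples. Without MyoD-/- B, which is in neither group but enters the filter and the shared estimate of spread, 12 members were called higher and 12% of all genes were called. They were the 6 above with Cdc6, Fen1, Pola1, Prim1, Rfc3 and Rpa3. A plain two-sample test called 3 members, and 186 of all 9013 genes in either direction.

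In MyoD-/- against wild type, 0 of 40 members were called by limma, where 5.91% of all 12058 genes were called higher and 6.76% lower. At an unadjusted p under 0.05 (limma) there were 0 higher and 4 lower, against 1511 and 1675 of all 12058 genes. A plain two-sample test with the same adjustment also called 0, against 361 of all genes. The median log2 fold change was -0.02 and single values ran between -0.6 (Rpa2) and 0.43 (Gmnn). The samples of the genotypes were separate for 6 members, all lower in MyoD-/-, against 14.8% of all genes separate and higher and 16.2% separate and lower. Without MyoD-/- B, Pcna was called higher, with a log2 fold change of 0.41 (adjusted p 0.0411). Without MyoD-/- A, which was scanned on another day than the other U74Av2 arrays, Mcm2 was called lower, with -0.75 (adjusted p 0.0404).

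In MyoD-/- against p53-/-, the direct test of the difference between the mutants, 12 of 39 members fell and 0 rose, where 8.44% of all genes were called lower and 7.66% higher. The median was -0.44, against 0 for all genes, and 36 of the 39 values were negative, against 49.55% of all genes. All MyoD-/- samples lay below all p53-/- samples for 17 members and above them for 1 (Rrm2), against 18.5% and 16.1% of all genes. With every array shifted to one median, the median of all genes moved to -0.08 and that of the members to -0.53, and the calls over all genes changed to 547 higher and 893 lower, against 690 higher and 761 lower as deposited. Without MyoD-/- B the count of members was 6 and the median -0.25, and 10.4% of all genes were called in either direction, against 16.1% with all samples. Of the 12 called members 5 kept their call then, and Orc4 was added. The count was 7 without MyoD-/- C, 4 without p53-/- A and 6 without p53-/- C, where 12.5%, 10.8% and 10.7% of all genes were called. A plain two-sample test called 0 members, and 148 of all 9013 genes in either direction. The comparisons share their samples pairwise, so the counts are not independent of each other. The p-values set a difference of genotype means against the scatter of samples within genotypes, which may be technical. An exact permutation test of 3 against 3 samples cannot go below 0.1 for a single gene.

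**Figure D2:**
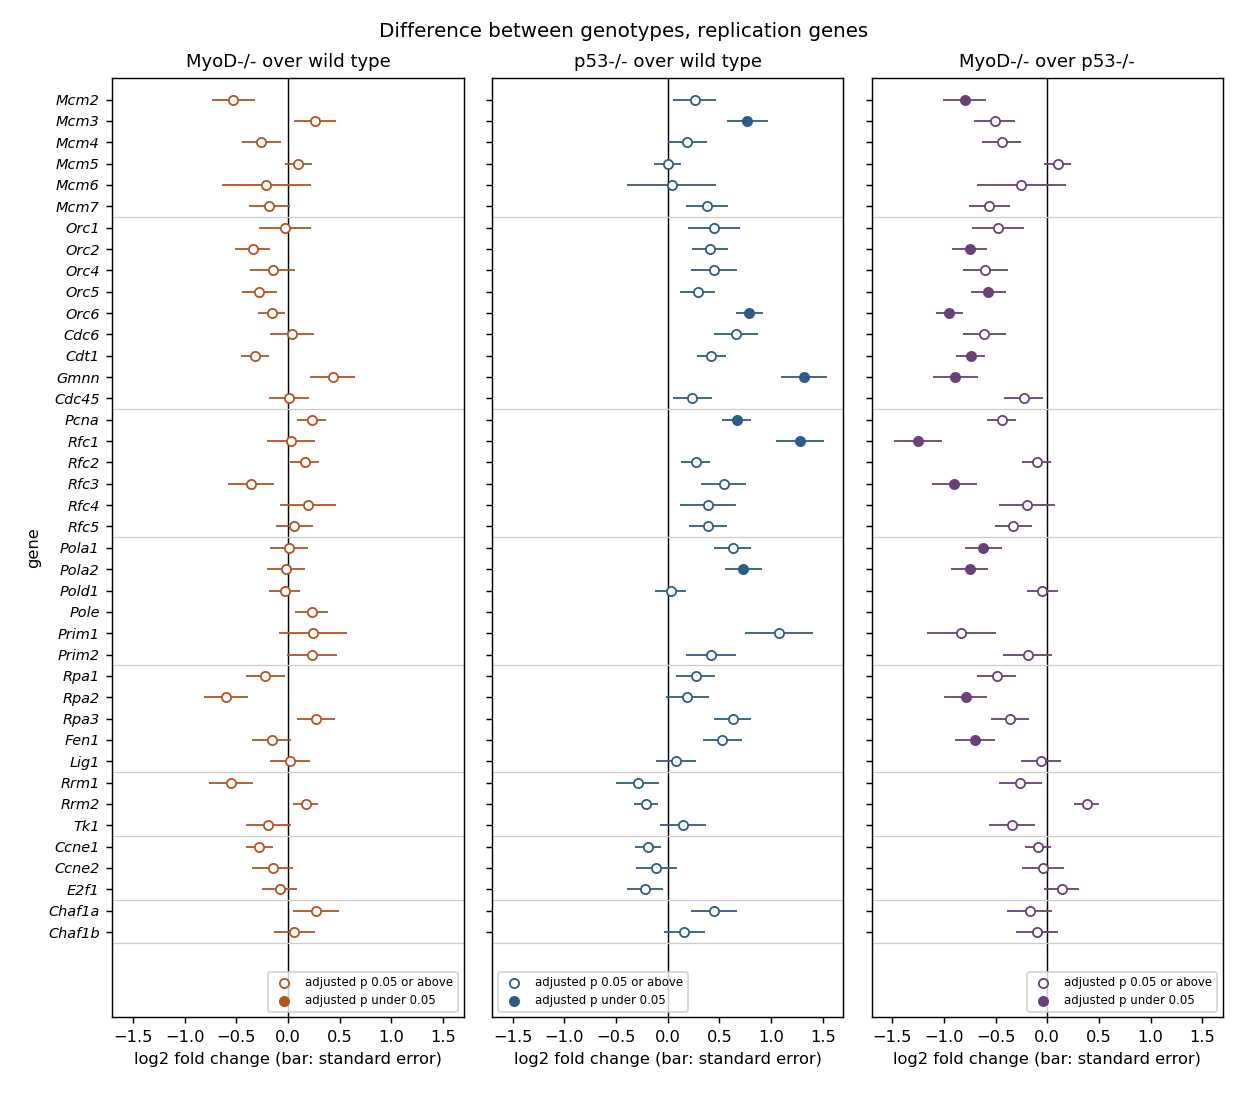
Log2 fold change with its standard error (bars) for 40 tested members, by role from the MCM helicase at the top to chromatin assembly at the bottom, in the 3 comparisons. Filled points passed an adjusted p under 0.05: 0 in MyoD-/- over wild type, 6 in p53-/- over wild type, all to the right of 0, and 12 in MyoD-/- over p53-/-, all to the left of 0; Pole has a point in the first panel only.

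By role, positive values in p53-/- against wild type were found for most members outside the genes that supply deoxynucleotides and the cyclin E and E2f1 genes, on the probe sets that represent them. All 9 licensing genes, all 6 clamp and loader genes, all 5 tested polymerase and primase genes and all 5 strand-binding and joining genes had a positive log2 fold change in p53-/- against wild type, with group medians of 0.45, 0.47, 0.63 and 0.27. Both chromatin assembly genes were positive too, with a median of 0.30, as were 5 of the 6 MCM helicase genes, with a median of 0.23. Of the 3 tested deoxynucleotide genes 1 was positive (Tk1), with a median of -0.21, and of the 3 G1/S regulators 0 were, with a median of -0.19. Every other tested probe set of these regulators was positive, at 0.77 and 0.61 for Ccne1, 0.67 for Ccne2 and 0.14 for E2f1. Other tested probe sets of Tk1 gave 1.10, 0.90 and -0.01, and that of Rrm1 gave -0.54. The signs of the regulators and of Tk1 therefore depend on the probe set. The group medians rest on few genes and are given as a description with no test of the difference between roles.

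The promoters of the called members are shown because these genes were higher in the same genotype, and next to them those members whose promoters hold the longer E2F letters. Of the 41 members 35 had a promoter among the RefSeq promoters of build GRCm38.p6, each of 250 bases before to 50 bases after a start. The letters searched, on both strands, were TTTCGCGC and TTTGGCGC (the longer E2F letters), TTCCCGCC (an E2F core) and CCAAT (the CCAAT box); TTTCGCGC and TTTGGCGC of opposite strands can overlap. Any of the 3 E2F strings stood in 15 of the 35 genes (42.9%), against 3.39% of the 27025 genes in the promoter set. The longer letters alone were held by 25.7% of member genes and 0.929% of all genes, the core by 20% and 2.52%, and CCAAT by 60% and 41.1%. The 160 bases before the start follow for the 5 members called in p53-/- that have a promoter there, with matched letters in capitals and the strand of the gene read 5′ to 3′.
Mcm3, chr1:20820313-20820472, minus strand: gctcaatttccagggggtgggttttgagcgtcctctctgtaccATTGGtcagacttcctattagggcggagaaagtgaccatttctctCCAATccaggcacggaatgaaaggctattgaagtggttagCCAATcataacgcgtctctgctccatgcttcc
Orc6, chr8:85299472-85299631, plus strand: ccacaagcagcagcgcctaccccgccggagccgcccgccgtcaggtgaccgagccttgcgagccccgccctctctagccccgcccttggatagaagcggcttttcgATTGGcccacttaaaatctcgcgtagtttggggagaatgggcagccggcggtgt
Pcna, chr2:132253181-132253340, minus strand: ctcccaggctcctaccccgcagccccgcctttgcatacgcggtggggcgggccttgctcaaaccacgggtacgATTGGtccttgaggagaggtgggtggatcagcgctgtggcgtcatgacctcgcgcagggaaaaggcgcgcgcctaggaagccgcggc
Rfc1, chr5:65335640-65335799, minus strand: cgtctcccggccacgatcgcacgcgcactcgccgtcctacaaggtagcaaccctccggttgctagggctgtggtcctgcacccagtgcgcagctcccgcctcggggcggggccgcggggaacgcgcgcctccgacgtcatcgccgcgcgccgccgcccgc
Pola2, chr19:5964207-5964366, minus strand: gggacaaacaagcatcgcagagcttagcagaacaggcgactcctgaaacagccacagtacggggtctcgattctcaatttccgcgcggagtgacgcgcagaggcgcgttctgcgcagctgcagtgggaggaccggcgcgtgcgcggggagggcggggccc
Of these 5 only Mcm3 held E2F strings, and both of its strings lay after the start, outside the stretch shown. The capitals in Mcm3, Orc6 and Pcna are CCAAT boxes, of which Mcm3 has 3, and neither Rfc1 nor Pola2 has a match in the stretch. The 5 members with the longer E2F letters before the start were these.
Mcm5, chr8:75109349-75109508, plus strand: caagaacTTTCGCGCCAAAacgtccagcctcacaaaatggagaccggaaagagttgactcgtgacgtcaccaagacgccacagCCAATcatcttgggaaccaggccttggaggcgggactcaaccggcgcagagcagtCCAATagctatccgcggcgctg
Mcm6, chr1:128359706-128359865, minus strand: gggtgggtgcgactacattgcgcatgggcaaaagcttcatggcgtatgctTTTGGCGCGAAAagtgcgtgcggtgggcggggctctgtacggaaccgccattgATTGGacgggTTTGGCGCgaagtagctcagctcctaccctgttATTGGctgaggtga
Orc1, chr4:108579294-108579453, plus strand: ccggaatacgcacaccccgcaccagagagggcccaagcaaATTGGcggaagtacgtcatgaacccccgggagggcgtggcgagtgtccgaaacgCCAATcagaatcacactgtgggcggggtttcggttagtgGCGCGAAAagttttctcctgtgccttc
Pola1, chrX:93632156-93632315, minus strand: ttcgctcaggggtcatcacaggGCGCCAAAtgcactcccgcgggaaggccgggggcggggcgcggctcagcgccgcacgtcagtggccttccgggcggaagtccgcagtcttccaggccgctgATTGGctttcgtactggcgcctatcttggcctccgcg
Rfc3, chr5:151651209-151651368, minus strand: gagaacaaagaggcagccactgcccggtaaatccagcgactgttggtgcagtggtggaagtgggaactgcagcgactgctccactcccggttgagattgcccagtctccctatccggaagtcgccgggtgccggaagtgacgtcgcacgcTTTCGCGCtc
In Mcm5 and Mcm6 2 E2F strings of opposite strands overlap, beginning 153 and 149 bases before the start in Mcm5 and 110 and 106 bases before it in Mcm6. None of these 5 genes was called in p53-/- against wild type, and Pola1 and Rfc3 were called lower in MyoD-/- than in p53-/-. Over all members, an E2F string stood in 4 of the 13 genes with a promoter that were called in either of these comparisons and in 11 of the 21 that were called in neither. A match is a string of letters and not a measured binding site.

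The MCM helicase, a ring of 6 different subunits that unwinds DNA, gave 1 call in each comparison that involved p53-/-. Mcm3 had signals of 7345, 4010 and 6135 in MyoD-/- A, B and C, 8073, 7099 and 9128 in p53-/-, and 4856, 4394 and 4859 in wild type. All p53-/- samples were above all wild type samples, and MyoD-/- spanned both. The log2 fold change was 0.77 ± 0.20 (SE, n = 3 each) in p53-/- against wild type, with an adjusted p of 0.0326 (limma). The other probe set of Mcm3 was also called, at 1.05 ± 0.25. Mcm2 had 3633, 1768 and 3009 in MyoD-/-, 4740, 5002 and 4423 in p53-/-, and 3918, 3872 and 3958 in wild type. The 3 genotypes did not overlap, MyoD-/- being lowest and p53-/- highest. The difference was called between the mutants, with -0.80 ± 0.21 in MyoD-/- against p53-/- (adjusted p 0.0344), and was -0.50 without MyoD-/- B (adjusted p 0.0511). Mcm5 had 28780, 27230 and 25480 in MyoD-/-, 24090, 28940 and 23280 in p53-/-, and 23770, 24720 and 27640 in wild type on U74Cv2, with overlapping groups. Its log2 fold change in p53-/- against wild type was 0.00 there, with a 95% interval of -0.29 to 0.29. The U74Av2 probe set of Mcm5 read 9594, 4970 and 6330 in MyoD-/-, 9720, 10260 and 8483 in p53-/-, and 5907, 4954 and 6542 in wild type. The p53-/- samples were above the wild type samples on it, at 0.71 ± 0.21 with an adjusted p of 0.0600, so the 2 probe sets of Mcm5 disagree. Mcm4, Mcm6 and Mcm7 were not called, with 0.19 ± 0.19, 0.04 ± 0.43 and 0.38 ± 0.20 in p53-/- against wild type. The other tested probe set of Mcm6 gave -0.13 ± 0.24. The Mcm3 call was lost without p53-/- A, without p53-/- C or without any 1 wild type sample (adjusted p 0.0694 to 0.112). The Mcm2 call was lost without MyoD-/- B or C, any 1 p53-/- sample or wild type A (0.0508 to 0.0920).

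Licensing genes carried 2 of the 6 calls in p53-/- and 5 of the 12 calls between the mutants. Orc6, a subunit of the origin recognition complex, had 3210, 2515 and 3139 in MyoD-/-, 5581, 5518 and 6095 in p53-/-, and 3343, 3556 and 2970 in wild type. Every p53-/- sample exceeded every other sample, and MyoD-/- overlapped wild type. The log2 fold change was 0.79 ± 0.13 in p53-/- against wild type (adjusted p 0.00500) and -0.95 ± 0.13 in MyoD-/- against p53-/- (adjusted p 0.00138). Gmnn, which binds Cdt1 and prevents a second round of licensing, had 948.6, 874.9 and 1588 in MyoD-/-, 2005, 1891 and 2422 in p53-/-, and 821.8, 946.7 and 652.6 in wild type. Again p53-/- was above all other samples, and MyoD-/- C was the highest of the rest. This was the largest change among the members in p53-/- against wild type, at 1.32 ± 0.22 (adjusted p 0.00514, limma). In MyoD-/- against p53-/- Gmnn had -0.89 ± 0.22 (adjusted p 0.0259, limma). Cdt1, which brings the helicase to origins, had 5788, 4041 and 4944 in MyoD-/-, 8745, 7342 and 8593 in p53-/-, and 6374, 6277 and 5724 in wild type. The p53-/- samples were the highest and only MyoD-/- A lay within the wild type range. Cdt1 was called between the mutants, at -0.74 ± 0.14 (adjusted p 0.00721), and had 0.42 ± 0.14 in p53-/- against wild type (adjusted p 0.0953). Its second tested probe set was called between the mutants too, at -0.84 ± 0.24. Orc2 had 507.8, 483.6 and 406.8 in MyoD-/-, 789.6, 955.4 and 749.9 in p53-/-, and 642.8, 535.9 and 643.4 in wild type. The genotypes were separate, MyoD-/- lowest and p53-/- highest, and the difference between the mutants was -0.75 ± 0.17 (adjusted p 0.0155).

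Cdc6, the loader that joins the origin recognition complex in G1, had 2443, 1388 and 2532 in MyoD-/-, 3293, 2859 and 3391 in p53-/-, and 2011, 2075 and 1878 in wild type. The p53-/- samples were all above the other samples and MyoD-/- B was the lowest. The log2 fold change of 0.66 ± 0.21 in p53-/- against wild type had an adjusted p of 0.0697, which was 0.0116 without MyoD-/- B. Orc5 was called between the mutants at -0.57 ± 0.17 (adjusted p 0.0462), with 1110 to 1425 in MyoD-/- and 1555 to 2253 in p53-/-. Orc1 (0.45 ± 0.25), Orc4 (0.45 ± 0.22) and Cdc45, which joins the helicase when origins fire (0.24 ± 0.19), were not called in p53-/- against wild type. The U74Av2 probe set of Cdc45 gave 0.69 ± 0.21 (adjusted p 0.0655, limma), with all p53-/- samples above wild type. That of Orc4 gave 0.04 ± 0.14, so the probe sets of both genes differ in size of change. The calls of Orc6 in both comparisons, of Gmnn in p53-/- against wild type and of Cdt1 between the mutants held in all 9 fits that each left out 1 sample. Between the mutants Gmnn lost its call without MyoD-/- A or B or p53-/- A or C (adjusted p 0.0621 to 0.0974). Orc2 lost it without MyoD-/- C or p53-/- B (0.0526 and 0.0565). Orc5 kept it only without MyoD-/- C or p53-/- B, and otherwise had 0.0527 to 0.143.

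**Figure D3:**
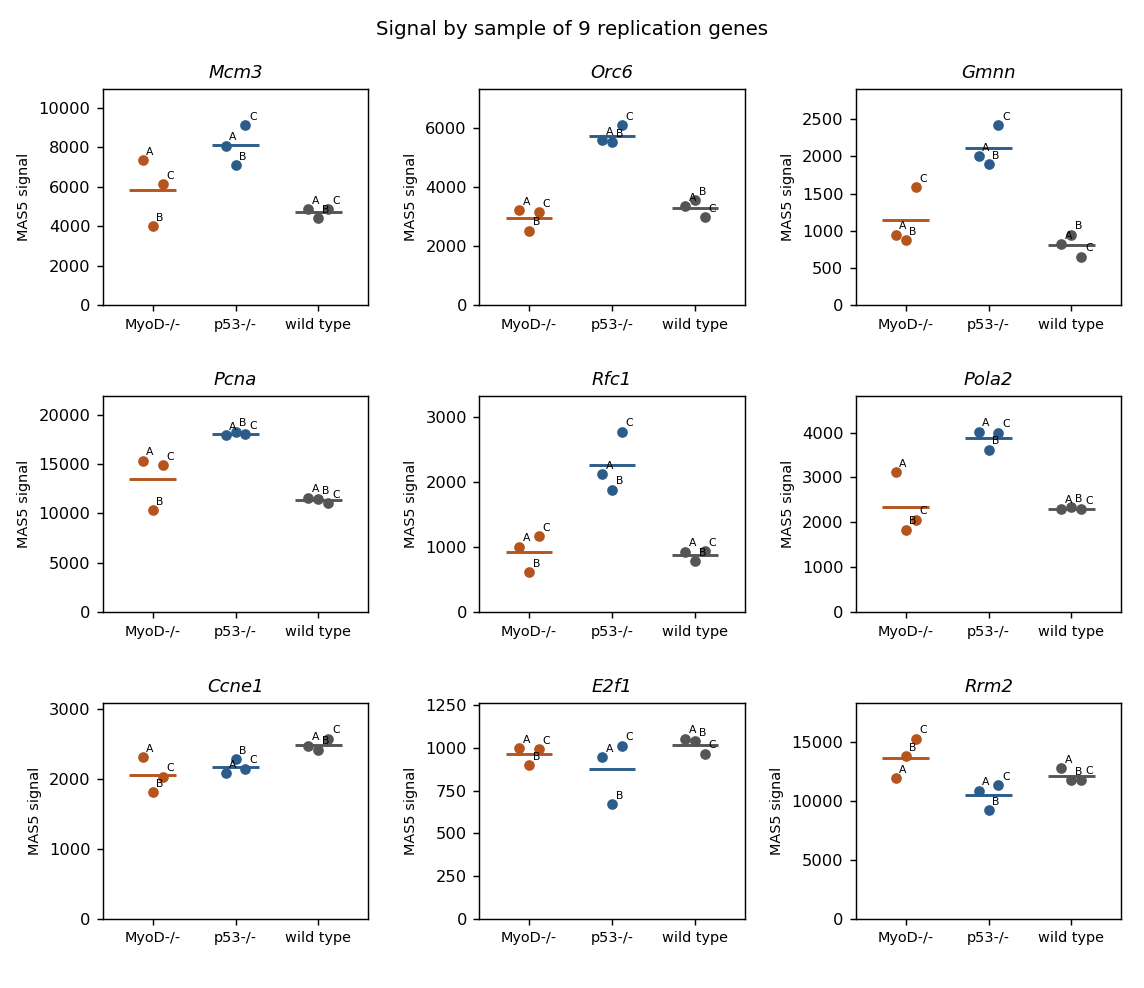
MAS5 signal in each sample (points, lettered A to C) and the mean of 3 samples (lines) for the 6 members called in p53-/- against wild type and for Ccne1, E2f1 and Rrm2; every axis starts at 0. In the first 6 panels all p53-/- samples lie above all wild type samples, for example 17900 to 18260 against 11050 to 11570 for Pcna, and in the last row they do not.

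The clamp and its loader held 2 of the calls in p53-/- and 2 of those between the mutants. Pcna, the clamp, had 15350, 10340 and 14890 in MyoD-/-, 17900, 18260 and 18000 in p53-/-, and 11570, 11420 and 11050 in wild type. MyoD-/- A and C lay between the other genotypes and MyoD-/- B below them. The log2 fold change was 0.67 ± 0.14 in p53-/- against wild type (adjusted p 0.0148). Between the mutants it was -0.44 ± 0.14 (adjusted p 0.0695). Rfc1, the large subunit of the loader, had 1001, 615 and 1167 in MyoD-/-, 2113, 1876 and 2768 in p53-/-, and 927.7, 776.9 and 936.5 in wild type. All p53-/- samples exceeded all others, with 1.28 ± 0.23 against wild type (adjusted p 0.00627) and -1.25 ± 0.23 for MyoD-/- against p53-/- (adjusted p 0.00537). A second and dimmer Rfc1 probe set, at 43.52 to 364.8 over the 9 samples, was called in neither comparison (0.11 ± 0.41 in p53-/- against wild type). Rfc3, a small subunit, had 744, 414.3 and 802.5 in MyoD-/-, 1395, 1204 and 1129 in p53-/-, and 836.6, 822.3 and 834.2 in wild type. The order p53-/-, wild type, MyoD-/- held without overlap, and the difference between the mutants was -0.90 ± 0.22 (adjusted p 0.0201), or -0.64 without MyoD-/- B (adjusted p 0.0414). Rfc2, Rfc4 and Rfc5 were not called, with 0.27 ± 0.14, 0.39 ± 0.27 and 0.39 ± 0.18 in p53-/- against wild type. A dimmer Rfc5 probe set went the other way without a call, at -0.41 ± 0.24, with 351.5, 335.7 and 192.5 in p53-/- and 382.8, 432.1 and 388.7 in wild type. The calls of Pcna in p53-/- against wild type and of Rfc1 in both comparisons held without any 1 sample, with adjusted p up to 0.0495 for Pcna. Rfc3 lost its call without p53-/- A alone (0.0738).

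Among polymerases and primase the subunits of polymerase alpha were called. Pola2, its second subunit, had 3119, 1836 and 2061 in MyoD-/-, 4017, 3614 and 3998 in p53-/-, and 2301, 2330 and 2287 in wild type. The p53-/- samples were the highest, wild type varied little, and MyoD-/- samples lay on both sides of wild type. The log2 fold change was 0.73 ± 0.18 in p53-/- against wild type (adjusted p 0.0262) and -0.75 ± 0.18 in MyoD-/- against p53-/- (adjusted p 0.0197). Its other tested probe set, at 238.6 to 994.6 over the samples, was not called, with 0.49 ± 0.47 and -0.22 ± 0.47. Pola1, the catalytic subunit, was called between the mutants at -0.62 ± 0.18 (adjusted p 0.0492), and had 0.63 ± 0.18 in p53-/- against wild type (adjusted p 0.0524). Prim1, the catalytic subunit of primase, had 1.08 ± 0.33 in p53-/- against wild type (adjusted p 0.0649), where 1 wild type sample at 1019 was far above the others at 563.4 and 443.5. Prim2, with 0.42 ± 0.24, and Pold1, the catalytic subunit of polymerase delta, with 0.03 ± 0.15 (95% interval -0.31 to 0.37), were not called. The other tested probe sets of Pold1 gave -0.27 ± 0.20 on U74Av2 and 0.13 ± 0.24 on U74Cv2, also without a call. Pole, the catalytic subunit of polymerase epsilon, was tested on U74Bv2 alone, with 11080, 9227 and 7277 in MyoD-/- and 7956, 7619 and 7495 in wild type, which overlapped (0.23 ± 0.16, adjusted p 0.445). The Pola2 call in p53-/- was lost without p53-/- A or C or any 1 wild type sample (adjusted p 0.0671 to 0.0845), and that between the mutants without MyoD-/- B or C or p53-/- A or C (0.0644 to 0.0712). Pola1 kept its call between the mutants in 1 of 9 such fits, without p53-/- C, and had 0.0543 to 0.165 in the other 8.

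Genes for binding single strands and joining fragments gave 2 calls between the mutants and 0 in p53-/- against wild type. Rpa2, a subunit of the single-strand binding protein RPA, had 2107, 1800 and 2841 in MyoD-/-, 3925, 3275 and 4606 in p53-/-, and 3010, 3723 and 3549 in wild type on U74Cv2. MyoD-/- was below both other genotypes, which overlapped each other. The difference between the mutants was -0.79 ± 0.21 (adjusted p 0.0300), and -0.65 without MyoD-/- B (adjusted p 0.107). The U74Av2 probe set of Rpa2 gave -0.44 ± 0.18 and was not called. Fen1, the nuclease that trims fragment ends, was called between the mutants at -0.70 ± 0.19 (adjusted p 0.0376), with 1252 to 2251 in MyoD-/- and 2761 to 3110 in p53-/-. In p53-/- against wild type Fen1 had 0.53 ± 0.19, Rpa3 0.63 ± 0.18, Rpa1 0.27 ± 0.19 and Lig1, the ligase that seals the fragments, 0.08 ± 0.19, and none of these was called. Rpa2 lost its call without MyoD-/- A or B or p53-/- A or C (0.0722 to 0.107), and Fen1 kept it only without MyoD-/- A or wild type C, with 0.0510 to 0.113 otherwise.

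Of the genes that supply deoxynucleotides, both subunits of ribonucleotide reductase were negative in p53-/- against wild type without a call, and the probe sets of thymidine kinase disagreed. Rrm2, the small subunit of ribonucleotide reductase, had 11920, 13810 and 15280 in MyoD-/-, 10870, 9199 and 11360 in p53-/-, and 12760, 11780 and 11800 in wild type. The p53-/- samples were the lowest, and MyoD-/- overlapped wild type. The log2 fold change was -0.21 ± 0.12 in p53-/- against wild type, with a 95% interval of -0.49 to 0.06, and 0.38 ± 0.12 in MyoD-/- against p53-/- (adjusted p 0.0722). The difference between the mutants was called under quantile normalization, with scan day as a block and without MyoD-/- A. MyoD-/- A was the only U74Av2 array of its scan day, so the day block and leaving out that sample are not separate checks. Rrm1, the large subunit, had -0.55 ± 0.21 in MyoD-/- against wild type (adjusted p 0.134) and -0.29 ± 0.21 in p53-/- against wild type. Tk1, thymidine kinase, was called on 1 of its 4 tested probe sets. That U74Av2 probe set read 10170, 3767 and 5595 in MyoD-/-, 6699, 5325 and 7951 in p53-/-, and 2761, 2789 and 3599 in wild type. Both mutants lay above wild type on it, at 0.97 ± 0.30 for MyoD-/- (adjusted p 0.0668) and 1.10 ± 0.30 for p53-/- (adjusted p 0.0419). The brightest Tk1 probe set, on U74Cv2, gave -0.19 ± 0.22 and 0.15 ± 0.22 and overlapped between all genotypes. The other 2 on U74Cv2 gave 0.90 ± 0.34 and -0.01 ± 0.18 in p53-/- against wild type, and on the first of them all p53-/- samples lay above wild type. Tyms, thymidylate synthase, had a single dim probe set that did not pass the filter, with signals of 28.18 to 292 over the 9 samples, and was not tested.

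The cyclin E genes and E2f1 had no call on the probe set that represents them. Ccne1, a cyclin that activates Cdk2 at the G1/S step, had 2312, 1812 and 2036 in MyoD-/-, 2089, 2283 and 2148 in p53-/-, and 2480, 2421 and 2579 in wild type. Every mutant sample lay below every wild type sample, with log2 fold changes of -0.28 ± 0.13 for MyoD-/- (adjusted p 0.217) and -0.19 ± 0.13 for p53-/- (adjusted p 0.392). Both other tested Ccne1 probe sets, on U74Cv2, went the other way in p53-/- against wild type, at 0.77 ± 0.37 and 0.61 ± 0.44 without a call. The brighter of them read 1015, 754 and 1055 in MyoD-/-, 1799, 1614 and 1090 in p53-/-, and 1039, 395.6 and 1278 in wild type, with overlap between p53-/- and wild type. Ccne2 had 4106, 4813 and 3347 in MyoD-/-, 4122, 5223 and 3351 in p53-/-, and 4091, 4546 and 4868 in wild type on U74Cv2, with full overlap. On U74Av2 a dimmer Ccne2 probe set read 229.1, 139.9 and 290 in MyoD-/-, 451.5, 473.4 and 410.8 in p53-/-, and 302, 240.2 and 225.9 in wild type. The p53-/- samples were the highest there, and the difference between the mutants was called, at -0.87 ± 0.25 (adjusted p 0.0445). In p53-/- against wild type the values were 0.67 ± 0.25 on U74Av2 and -0.11 ± 0.20 on U74Cv2, neither of them called. E2f1, a transcription factor of G1/S genes, had 1000, 900.7 and 993.9 in MyoD-/-, 948.5, 673 and 1015 in p53-/-, and 1055, 1040 and 966.1 in wild type. Its groups overlapped, with -0.22 ± 0.17 in p53-/- against wild type and a 95% interval of -0.59 to 0.15. The second E2f1 probe set gave 0.46 ± 0.18 in MyoD-/- (adjusted p 0.154) and 0.14 ± 0.18 in p53-/-, both against wild type. Chaf1a and Chaf1b, subunits of the chromatin assembly factor that places histones on new DNA, had 0.45 ± 0.22 and 0.16 ± 0.20 in p53-/- against wild type and were not called in any comparison. Of the 18 members with several tested probe sets, another probe set had the opposite sign to the representing one for 9 in MyoD-/- against wild type, 7 in p53-/- against wild type and 7 between the mutants, and 0 of these probe sets were called. Their log2 fold changes ran between -0.52 and 0.97, between -0.41 and 0.77, and between -0.49 and 0.51 in these comparisons.

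**Figure D4:**
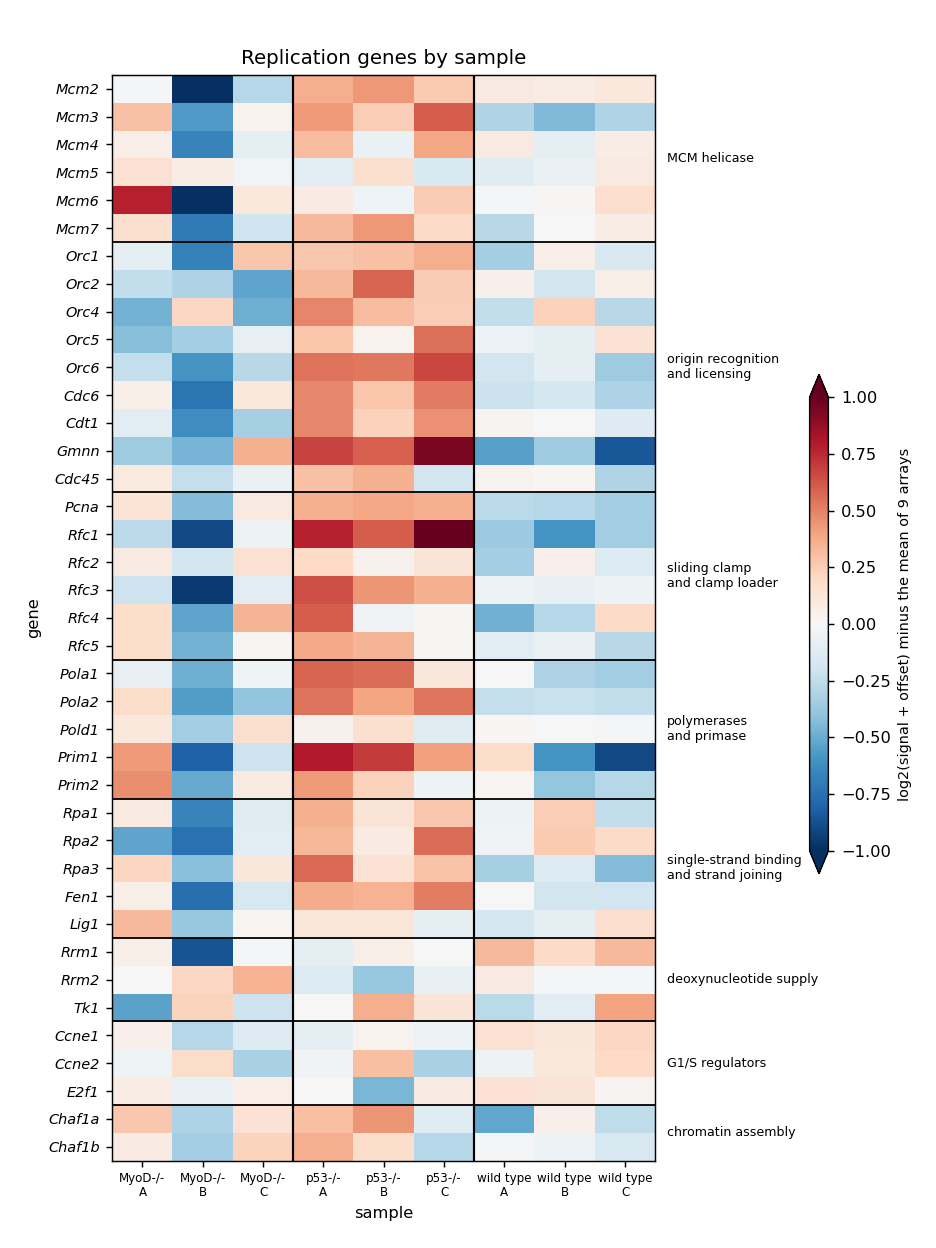
Deviation of each of 39 members from its mean over 9 arrays (log2 scale, colours saturate beyond 1 in either direction), with samples in columns and genes in rows by role. The p53-/- columns are above the mean for most genes down to Fen1, MyoD-/- B is below it for most genes, and in the rows from Rrm1 to E2f1 the p53-/- columns lie on both sides of the mean.

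By mean level, p53-/- ranked highest for 33 of the 39 members. The order was p53-/-, wild type, MyoD-/- for 17 of them and p53-/-, MyoD-/-, wild type for 16. This ranking was not made over all genes. Of all genes, 49.04% were positive in p53-/- against wild type and 49.55% negative in MyoD-/- against p53-/-. Of the 39 genes 32 were read on U74Av2, among them all 6 calls in p53-/- and 11 of the 12 calls between the mutants. On U74Av2 all arrays shared a chip lot, and all but MyoD-/- A a scan day. On U74Cv2 the wild type arrays shared a lot recorded for no other array, and MyoD-/- A had no recorded lot. Lot and genotype therefore cannot be told apart there in comparisons with wild type. Arrays p53-/- B and C shared a lot recorded for no MyoD-/- array, so lot and genotype also overlap in part between the mutants. Sample p53-/- C had the lowest array median on U74Av2 (463.9) and the highest ratio of 3′ to 5′ Gapdh signal (0.879 on U74Av2). Its signal was the highest of all samples for Mcm3, Orc6, Gmnn and Rfc1, and lay within the range of the other p53-/- samples for Pcna and Pola2.

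Other replication genes, a list that holds no member, leaned the same way in p53-/-. Of 38 tested, 9 rose and 1 fell in p53-/- against wild type, with a median of 0.49. Of all genes, 6.06% rose and 6.52% fell. The 6 with the smallest adjusted p were Pold2, a polymerase delta subunit (1.09 ± 0.18), Wdhd1, which links helicase and polymerase alpha (1.15 ± 0.19), the topoisomerase Top2a (1.03 ± 0.21), the histone chaperone Asf1b (1.09 ± 0.22), the histone mRNA binding protein Slbp (0.76 ± 0.19) and thymidylate kinase Dtymk (0.53 ± 0.13). Between the mutants 1 rose and 6 fell in MyoD-/- against p53-/-, where 7.66% of all genes rose and 8.44% fell. The riser was Pold4 (2.11 ± 0.21), and the 5 with the smallest adjusted p among those lower were Top1 (-0.89 ± 0.15), the deubiquitinase Usp1 (-1.20 ± 0.21), Asf1b (-1.01 ± 0.22), Asf1a (-0.49 ± 0.11) and the maintenance methylase Dnmt1 (-0.56 ± 0.14). Between MyoD-/- and wild type 3 of 41 were called, 2 higher and 1 lower, where 5.91% of all genes were called higher and 6.76% lower. Pold4, an accessory subunit of polymerase delta, averaged 6236 ± 1758 in MyoD-/- and 1301 ± 204.5 in wild type (SD, n = 3 each), a log2 fold change of 2.18 ± 0.21 (adjusted p 0.000139). Pole2, a subunit of polymerase epsilon, was higher (1.21 ± 0.32) and topoisomerase Top1 lower (-0.75 ± 0.15).

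Other G1/S regulators changed in both directions. Of all genes tested, 6.06% rose and 6.52% fell in p53-/- against wild type, and 5.91% and 6.76% in MyoD-/- against wild type. The shares in MyoD-/- against p53-/- were 7.66% and 8.44%. In p53-/- against wild type 7 of 22 rose and 4 fell. Cdkn1a had the largest change, at -2.40 ± 0.25, and the D-type cyclins Ccnd2 (-1.21 ± 0.19) and Ccnd1 (-0.75 ± 0.15) also fell. The transcription factor Myc (1.22 ± 0.19), the ubiquitin ligase subunit Skp2 (1.11 ± 0.18) and the E2F family member E2f5 (0.67 ± 0.14) rose. Of 27 tested in MyoD-/- against wild type, 1 rose and 5 fell. The INK4 inhibitor Cdkn2b averaged 489.3 ± 174.2 in MyoD-/- and 3591 ± 361.5 in wild type, a change of -2.76 ± 0.22. Ccnd3 (-1.43 ± 0.12), the E2F partner Tfdp2 (-1.06 ± 0.15), Cdkn2a (-0.91 ± 0.23) and E2f2 (-1.01 ± 0.26) fell, and E2f5 rose (0.64 ± 0.14). Between the mutants 3 of 22 rose and 8 fell in MyoD-/- against p53-/-. Cdkn2b (-2.58 ± 0.22), Skp2 (-1.58 ± 0.18), Ccnd3 (-0.86 ± 0.12) and Myc (-1.13 ± 0.19) were lower, and Cdkn1a (1.86 ± 0.25) and Ccnd2 (1.30 ± 0.19) higher. Mki67, a marker of cycling cells, had 4056, 2644 and 4610 in MyoD-/-, 3618, 3541 and 3373 in p53-/-, and 4026, 3642 and 2897 in wild type. Its groups overlapped and it was called in no comparison, with log2 fold changes of 0.07, 0.01 and 0.06. The wider G2/M and mitosis list had 14 of 33 genes higher and 0 lower in p53-/- against wild type, with a median of 0.57, and 1 higher and 10 lower in MyoD-/- against p53-/-. Of its 38 genes tested in MyoD-/- against wild type, 2 rose (5.26%) and 0 fell, against 5.91% and 6.76% of all genes.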

How the data were processed

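MAS5 signal intensities, linear and 1 for each probe set of an array, were deposited by the authors. MAS5 is named in the submitters' processing notes, which as used here hold no settings. They were used as deposited, since array trimmed means agreed within each chip type (1500.3 to 1501). An offset, the 20th percentile of a chip type (67.19, 146.1 and 106.4 on U74Av2, U74Bv2 and U74Cv2), was added before taking log2, so changes of dim genes are understated. Probe sets above the 40th percentile on at least 3 arrays were tested (7884, 7865 and 7883). Each chip type had its own limma 3.58.1 model (R 4.3.3, statmod 1.5.0, trended eBayes) with genotype alone. Benjamini-Hochberg adjustment ran over all probe sets of a contrast, and calls needed an adjusted p under 0.05. Comparisons with p53-/- used U74Av2 and U74Cv2, where 39 members were tested, and MyoD-/- against wild type also U74Bv2. The probe set of highest mean percentile on U74Av2 and U74Cv2 stood for a gene, and one of U74Bv2 where neither held a tested one. Signals carry no counts, and the number of arrays limits the precision. The procedure was tested on simulated data.

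The members, lists and tests were chosen with earlier results of these data known. Values in every sample are given for called members, up to the 8 with the smallest adjusted p per comparison, and for Mcm2, Mcm5, Pcna, Ccne1, Ccne2, E2f1, Cdc6 and Rrm2, and other probe sets where their call differs or, in p53-/- against wild type, their direction; opposite directions elsewhere are given as counts and ranges. Of other lists, up to 6 called genes of smallest adjusted p are named, with Myod1, Cdkn1a and Mki67 as checks. Symbols came from the platform annotation, and updated symbols added 0 probe sets. Samples of the same letter did not deviate together (r between -0.12 and 0.128), so letters were not treated as pairs. Alternatives covered offset, scaling, filter, test, blocks, probe set choice and leaving out each sample.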

Additional observations from a re-analysis of the deposited data

Results flagged for a closer look

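The difference between the mutants stood out because it was tested directly and passed for 12 of the 39 members, all lower in MyoD-/- than in p53-/-, while each mutant was also set against the same wild type samples. Over all genes 16.1% passed in either direction. By a plain two-sample test none of the 39 members passed, and 148 of all 9013 genes did. Without MyoD-/- B 6 of the 39 passed, 5 of the 12 and Orc4, and 10.4% of all genes.

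The single p53-/- array of U74Bv2, sample A, entered no count above. On it Pole had a signal of 12110, against 7956, 7619 and 7495 in wild type samples A, B and C, and so lay above every wild type array. No wild type array of U74Bv2 was scanned on the day of that array, so scan day and genotype cannot be told apart there. MyoD-/- B and C of U74Bv2 were scanned on that day too. With that array in the fit and its spread taken from the remaining groups, 6 members were called in p53-/- against wild type, and Pole was not among them (log2 fold change 0.65 ± 0.23, adjusted p 0.125, limma).

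Groups of 3 samples are too small for a test of outlying values, so none is given.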

How the results depend on the processing

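Single members had values in up to 25 of the 26 alternatives in p53-/- against wild type and up to 24 between the mutants. No called member changed direction in any of them. In p53-/- against wild type the 6 calls became 10 with arrays shifted to one median, 10 with only the 2 genotypes in the fit and 3 by a plain two-sample test, and between 4 and 12 when 1 sample was left out. In MyoD-/- against p53-/- the 12 calls became 7 with only the 2 genotypes in the fit, 7 with eBayes without a trend and 0 by the plain test, and between 4 and 13 when 1 sample was left out, where the median ran between -0.51 and -0.25. In MyoD-/- against wild type the 0 calls became 1 with scan day as a block, and 0 or 1 when 1 sample was left out. The call with scan day as a block was Mcm2, also called without MyoD-/- A, the only U74Av2 array of its scan day. With sample letter as a replicate block the counts were 0 for MyoD-/- and 7 for p53-/- against wild type, and 11 between the mutants, but letters were not shown to pair the samples. The cause of these changes was not tested. Over all genes, MyoD-/- against wild type had 1528 calls, but 361 by the plain test, 2299 over every tested probe set, and 1005, 1003 and 915 without MyoD-/- B, wild type A and wild type B. The 1134 calls of p53-/- against wild type became 186 by the plain test and 655, 715, 621 and 687 without p53-/- A, p53-/- C, wild type A and wild type B. Between the mutants 1451 calls became 148 by the plain test and 925 and 959 without MyoD-/- B and p53-/- C. Probe sets of one gene differed in call for Rfc1, Pola2, Rpa2, Tk1 and Ccne2, and for other members, Mcm5 and Cdc45 among them, in whether the samples of p53-/- and wild type overlapped. Preferring the U74Av2 probe set, which gave 7 calls in p53-/- against wild type, and counting every tested probe set were chosen after seeing the data. The chip lot on U74Cv2 and wild type cannot be told apart among arrays with a recorded lot, and the labels do not say what the letters stand for.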
